A study of Mus musculus with 15 samples.

Results

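The beta-defensin family of the mouse was taken as every protein-coding gene whose symbol starts with Defb, which gave 42 of the 50600 genes listed in each library, or 42 of 21764 protein-coding genes. A single Defb pseudogene was left out. Beta-defensins are small secreted peptides held together by disulfide bonds, and most are cationic and damage microbial membranes. Some also act as ligands, for instance of the chemokine receptor CCR6. Many members are best known from the epididymis, where they coat maturing sperm, and fewer from skin, airway and other surface epithelia, where some are constitutive and others are induced by bacterial products. Medullary thymic epithelium is known to transcribe many genes of other tissues at low levels, in part under the regulator Aire, and to show their products to developing T cells.

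The data are RNA sequencing of 15 libraries from male C57BL/6J mice, 8 weeks old, with no treatment given in the labels, whose epithelial cells were isolated by cell sorting. From the thymus came a cortical group (cTEC) and a medullary group (mTEC), and 3 further groups came from skin, colon and lung, each group with 3 libraries. Each library was made from the pooled cells of 5 mice, so that an SD is a spread among 3 pools and p-values measure the spread among pools. The series asked which mechanisms set the differing MHC class I levels of these epithelia. The kit was KAPA RNA Stranded PolyA for thymus and skin but KAPA RNA HyperPrep PolyA for colon and lung, so that kit and tissue cannot be told apart where colon or lung is compared with the other groups.

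Sense-strand reads in genes numbered 12946533 in skin replicate 1 to 41978665 in lung replicate 2. Levels are given as reads, as CPM (reads scaled to the library's gene reads with TMM factors) or, where genes are set side by side, as TPM, the authors' transcript levels, which allow for gene length. Summed over 6 markers each, the defining markers were highest in the group of their label. The cTEC markers reached 3235 to 9544 CPM in cTEC and at most 562 CPM elsewhere. The mTEC markers reached 2693 to 2983 CPM in mTEC and at most 1955 CPM elsewhere, although 1 of them, Cldn4, was higher in colon (1594 ± 205 CPM) and skin (852 ± 108 CPM) than in mTEC (217 ± 81.9 CPM). Skin keratins and Lor reached 28684 to 58670 CPM in skin, colon markers 9085 to 10173 CPM in colon, and lung markers 14144 to 24028 CPM in lung. Aire stood at 613, 242 and 587 CPM in the mTEC libraries and at 39.4, 26.4 and 67.1 CPM in the cTEC libraries. Other cells were seen too. Markers of thymocytes and T cells summed to 74.2 to 98.3 CPM in cTEC and 28 to 45.6 CPM in mTEC, fibroblast markers to 821 to 4583 CPM in skin and 448 to 712 CPM in lung, and myeloid markers to 493 to 609 CPM in lung. Neutrophil markers summed to 31.0 to 68.2 CPM in mTEC and 4.79 to 8.57 CPM in cTEC, and B cell markers to 2.01 to 4.78 CPM and 0.448 to 1.09 CPM. Male germ cell markers (Ddx4, Prm1 and Tnp1) summed to 0.502 to 1.46 CPM in mTEC and 0.111 to 0.504 CPM in cTEC. The part of these other cells in the members' levels was not tested.

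The first question was how many members each epithelium transcribed. A member counted as detected in a library with at least 1 sense-strand read. The 3 mTEC libraries held reads of 30, 19 and 24 of the 42 members, or 24.3 ± 5.51 (SD, n = 3). The cTEC libraries held 16, 6 and 5, or 9 ± 6.08, and without replicate 1 the cTEC mean was 5.5. Skin held 3, 6 and 5, colon 4, 5 and 5, and lung 8, 6 and 3. Each mTEC library thus held more members than any of the 12 other libraries. The order was not that of sequencing depth, since lung had the most gene reads, and with every library thinned to 12946533 gene reads the means were 22.7 in mTEC, 8.67 in cTEC, 4.67 in skin, 3.67 in colon and 4 in lung. The mTEC libraries also detected the largest share of all protein-coding genes, 83.4% to 86.6%, against 70.6% to 80.0% in cTEC, 61.4% to 66.9% in skin, 72.0% to 74.0% in colon and 73.4% to 74.4% in lung. In pooled cells, fewer cells that transcribe a gene and less RNA per cell cannot be told apart.

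**Figure D1:**
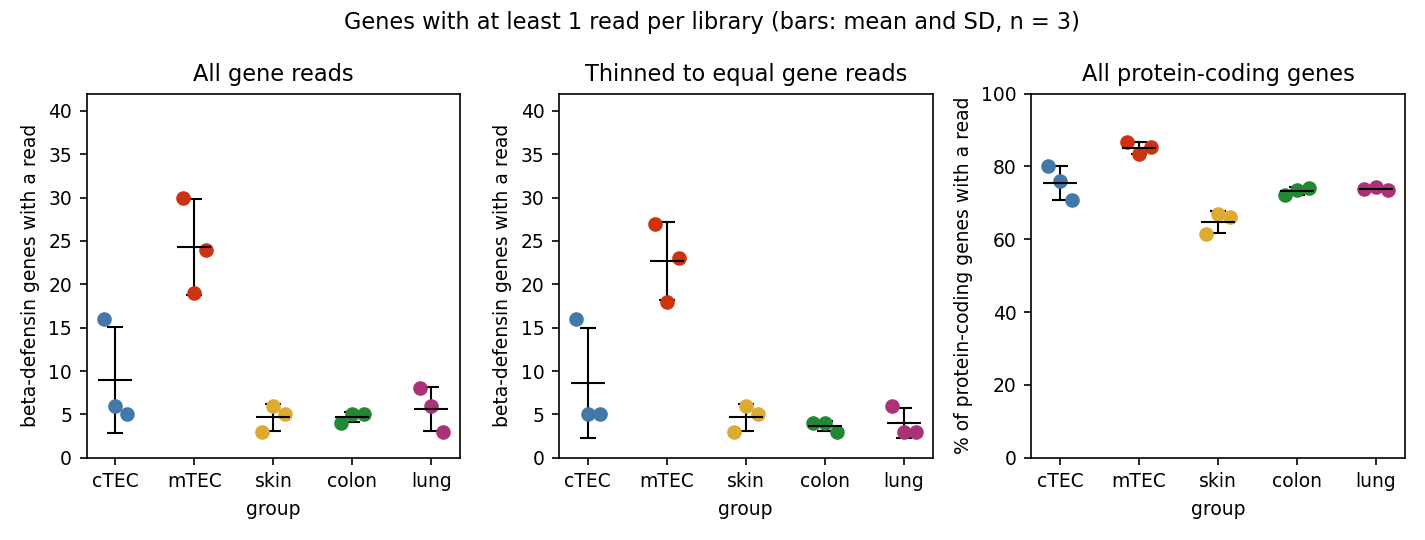
Genes with at least 1 read in each library, as points, with the mean and SD of the 3 libraries of a group as bars. The left and middle panels count beta-defensin genes in all gene reads and in libraries thinned to equal gene reads, and the right panel gives the percentage of all protein-coding genes. The mTEC libraries, at 19 to 30 members, lie above the others in the left panel, and cTEC replicate 1 follows at 16.

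Over the 3 libraries of a group together, 30 of the 42 members (71.4%) had a read in mTEC, where 88.7% of protein-coding genes did. In cTEC the members with a read were 16 (38.1%, against 81.9% of protein-coding genes), in lung 10 (23.8% against 77.9%), in skin 8 (19.0% against 71.5%) and in colon 7 (16.7% against 77.8%). In each group the family's percentage was below that of all protein-coding genes. All 30 members of mTEC had a read in mTEC replicate 1, and all 16 of cTEC in cTEC replicate 1. In total 35 members had a read somewhere. The 7 without one in any library were Defb7, Defb9, Defb10, Defb12, Defb13, Defb18 and Defb38. Of the 20 members with at least 10 reads in a group, 13 had their highest mean CPM in mTEC, 3 in colon, 3 in skin, 1 in cTEC and 0 in lung. Among the 17813 protein-coding genes with as many reads, 22.1% were highest in mTEC, 23.2% in colon, 17.9% in skin, 13.1% in cTEC and 23.7% in lung.

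The second question was whether mTEC transcribed members that the other epithelia did not. With a read required in each of the 3 mTEC libraries and in none of the 12 others, 2 members (4.76%) met the condition, Defb5 and Defb47, against 1.09% of protein-coding genes. Defb5 had 5, 6 and 3 reads in the mTEC libraries and Defb47 had 2, 1 and 4. The count was 4 without cTEC replicate 1, 6 without mTEC replicate 2 and 0 where the authors' estimated counts were used, which summed to 3 for Defb5 and 4 for Defb47 over the mTEC libraries. The 1.09% holds for the reads of all libraries. Leaving a library out loosens the condition for every gene. No share of protein-coding genes is given for these alternative counts, so they describe the members only. With a read in any mTEC library, a condition chosen after the values were seen, 10 members (23.8%) were found in mTEC alone, against 4.29% of protein-coding genes. They were Defb5 with 14 reads, Defb50 with 10, Defb47 with 7, Defb29 with 6, Defb2 and Defb41 with 2 each, and Defb21, Defb26, Defb39 and Defb48 with 1 each. A single read in deep libraries is the least that can be seen, and the 0 reads of another group allow a level of up to 0.0302 CPM in lung to 0.0781 CPM in skin, from 3 reads over its libraries.

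The other groups each had few members of their own. Under the looser condition, Defb33 was read in cTEC alone (1 and 3 reads in replicates 1 and 2), where 0.280% of protein-coding genes were read in cTEC alone. For these reads of Defb33 the authors' estimated counts gave 0. Defb35 was read in skin alone (7 and 11 reads in replicates 2 and 3, against a background of 0.106%). Defb40 and Defb34 were read in colon alone (0.482%), and Defb11 with 1 read in lung alone (0.322%). No member was read in every lung library and in no other group, where 0.0368% of protein-coding genes were. Defb40 had a read in each colon library, at 7, 2 and 1, where 0.0689% of protein-coding genes were read in every colon library and in no other group. Of the 23 members without a read in the 9 skin, colon and lung libraries, 15 (65.2%) had one in mTEC and 6 (26.1%) in cTEC. Among the 3630 protein-coding genes without a read in these 9 libraries, 1482 (40.8%) had one in mTEC and 609 (16.8%) in cTEC.

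Beta-defensin genes lie in clusters, and the members were chained along each chromosome where the gap to the next was at most 500 kb (positions from GENCODE M21 on GRCm38). This gave clusters of 2 genes on chromosome 1, 11 on chromosome 2 (chr2:152459055-152623053), 14 and 9 on chromosome 8 (chr8:18974940-19497775 and chr8:21776599-21948850) and 5 on chromosome 14 (chr14:62977524-63058149), with Defb33 on its own between the chromosome 8 clusters. In mTEC every gene of the chromosome 2 cluster, 11 of 11, and of the chromosome 14 cluster, 5 of 5, had a read in at least 1 library. For Defb21, Defb26, Defb43 and Defb48 this was 1 read each, in mTEC replicate 1. The authors' estimated counts gave 0 for Defb21 and Defb43 in every mTEC library. Among all protein-coding genes, 88.7% had a read in some mTEC library, 81.9% in cTEC, 71.5% in skin, 77.8% in colon and 77.9% in lung. The chromosome 2 and chromosome 14 clusters had 5 and 2 genes with a read in cTEC, 1 and 1 in skin, 2 and 0 in colon and 4 and 3 in lung. In the first chromosome 8 cluster 9 of 14 genes had a read in mTEC, 6 in cTEC, 4 in skin, 4 in colon and 1 in lung. In the second, 4 of 9 had one in mTEC and 2 in cTEC, 2 in skin, 1 in colon and 2 in lung. In every mTEC library, 7 genes of the chromosome 2 cluster, 7 of the first chromosome 8 cluster and 3 of the chromosome 14 cluster had a read.

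**Figure D2:**
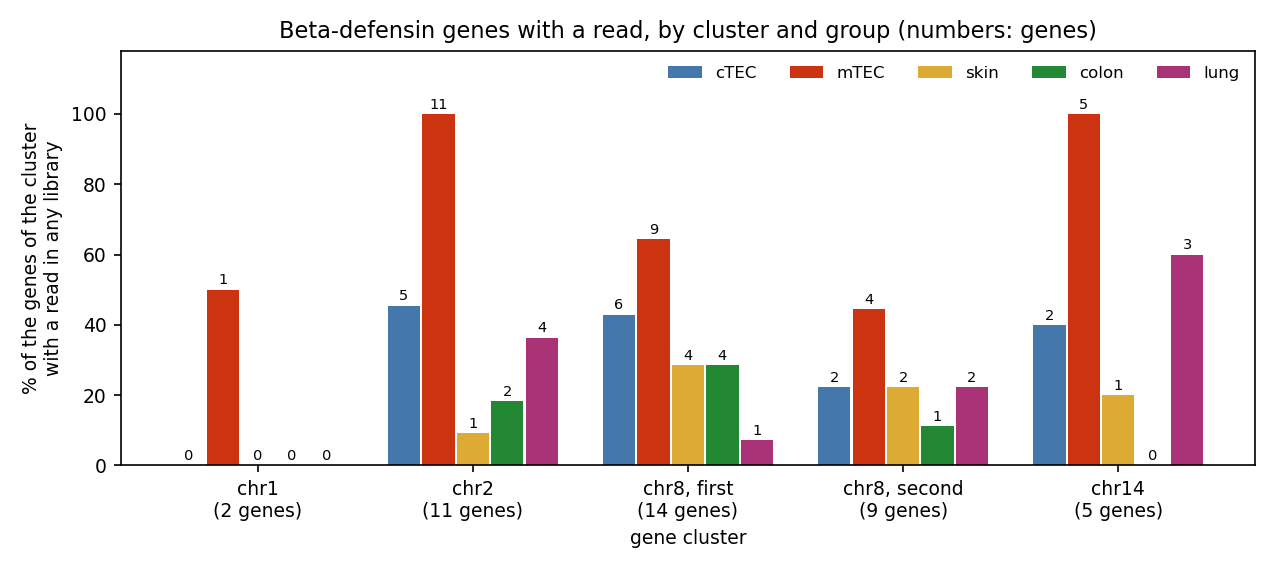
Percentage of the genes of each cluster with a read in any library of a group, by group, with the number of genes above each bar; the single gene Defb33 is not drawn. In mTEC the bars reach 11 of 11 genes on chromosome 2 and 5 of 5 on chromosome 14, where 88.7% of all protein-coding genes had a read. Defb21, Defb26, Defb43 and Defb48 enter these bars with 1 read each.

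Few protein-coding genes of other kinds lie within these clusters. Gm17416, on chromosome 2 between members, had 61 reads in mTEC and 0 elsewhere. In the first chromosome 8 cluster, Spag11b, an epididymal gene with a beta-defensin-like peptide, had 17 reads in mTEC and 6 in cTEC, Spag11a had 1 and Gm45826 had 8 in mTEC, and all of them had 0 in skin, colon and lung. Spag11b and Gm45826 overlap in position.

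Most of the family's reads came from a pair of genes. Summed over members, the family reached 48.9, 29.4 and 39.7 CPM in the mTEC libraries, 53.0, 54.0 and 26.4 CPM in cTEC, 65.5, 150 and 86.9 CPM in skin, 3.71, 2.80 and 4.91 CPM in colon and 16.1, 1.88 and 11 CPM in lung. The summed level of mTEC therefore overlapped that of cTEC. Defb1 and Defb6 together held 92.8% to 98.2% of the family's reads in cTEC, 89.4% to 99.1% in skin and 80.0% to 97.5% in lung. They held 57.6% to 61.7% in mTEC and at most 1.2% in colon. Without these genes, the family summed to 18.7, 11.3 and 16.8 CPM in mTEC, 2.76, 0.947 and 1.90 CPM in cTEC, 0.565, 15.9 and 1.52 CPM in skin, 3.67, 2.77 and 4.91 CPM in colon and 0.707, 0.376 and 0.279 CPM in lung. On this measure skin replicate 2, where Defb8 was high, lay among the mTEC libraries, and the 11 other libraries outside mTEC lay below them.

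**Figure D3:**
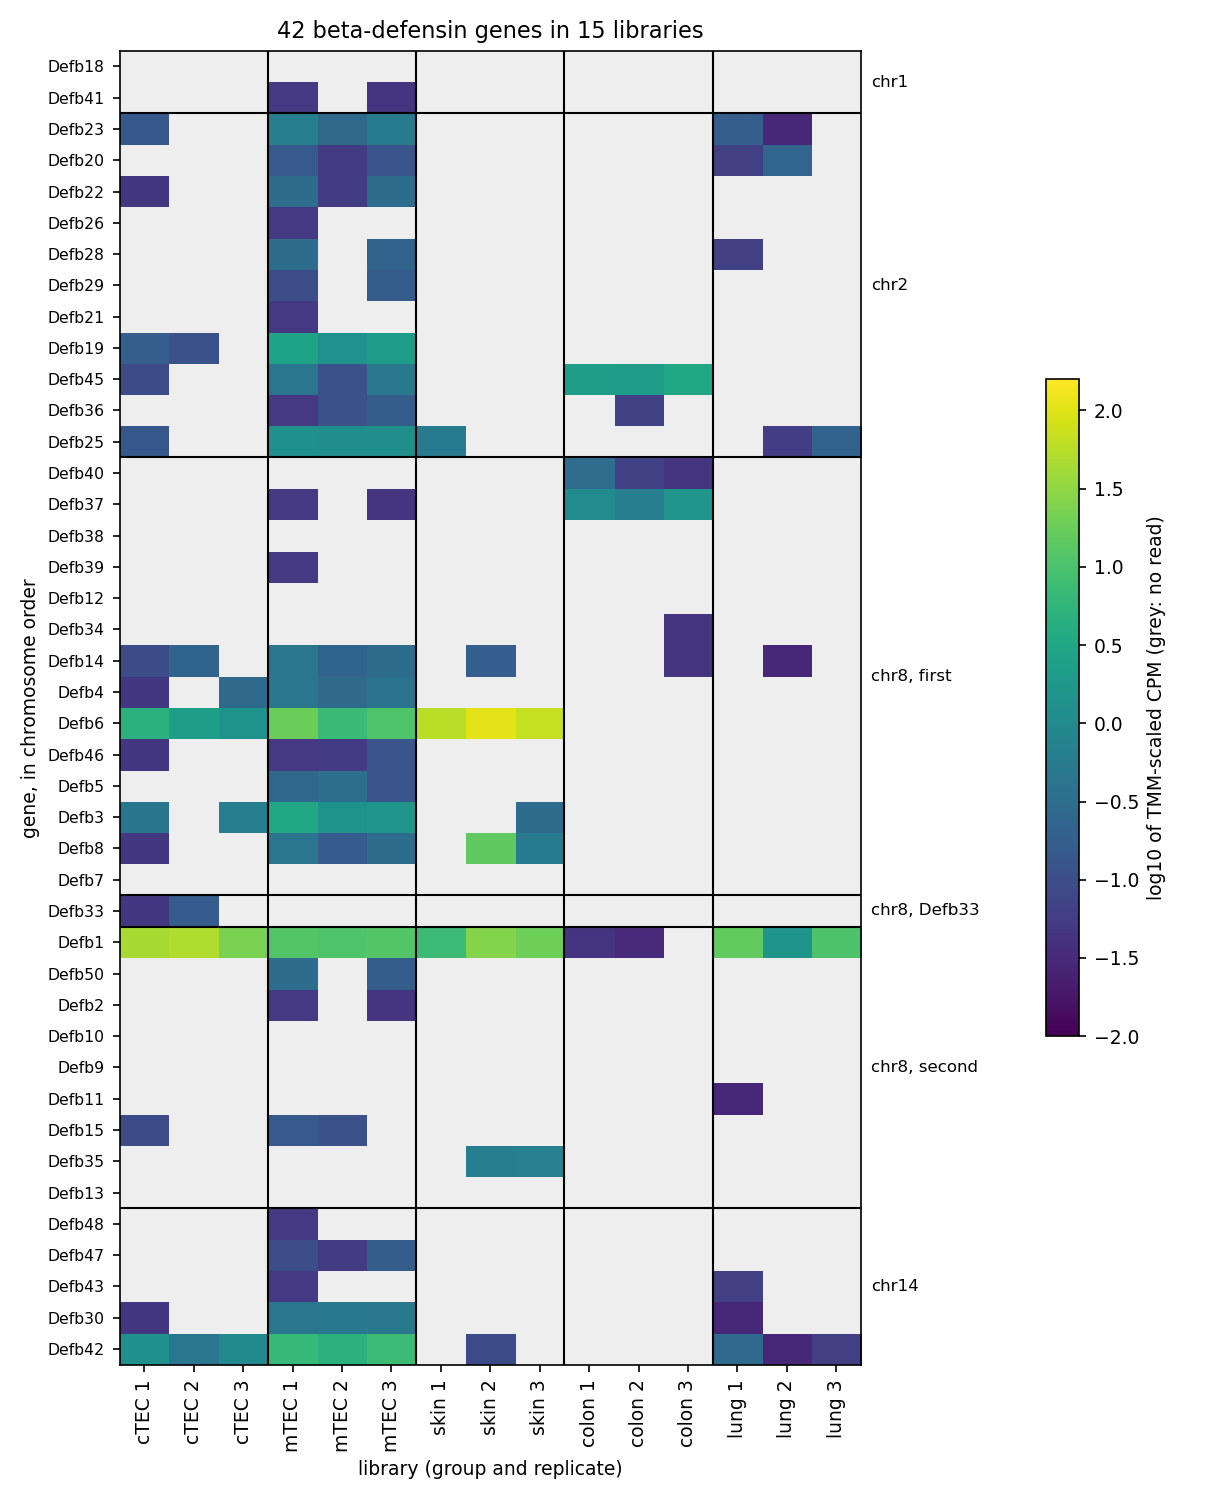
Level of each of the 42 members in each of the 15 libraries, as the log10 of TMM-scaled CPM, with genes in chromosome order and grey where a library had no read. The mTEC columns are filled over most of the chromosome 2 and chromosome 14 rows, Defb1 and Defb6 are the brightest rows, and Defb37, Defb40 and Defb45 stand out in colon.

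Levels were compared gene by gene with the edgeR quasi-likelihood F-test in a single fit of all 15 libraries, with Benjamini-Hochberg adjustment over the 19107 genes that passed the filter on low counts and a call at an adjusted p under 0.05. Only 10 members passed that filter, and the other 32 were not tested. A gene that passes through the group where it is high is bound to differ, so the counts of calls describe these 10 members and not the family. Against cTEC, 6 of the 10 were higher in mTEC, namely Defb6, Defb19, Defb25, Defb30, Defb42 and Defb45, where 15.2% of all genes tested were, and Defb1 was lower, where 9.45% of all genes were. The count of 7 calls, where 24.7% of all genes tested were called, fell to 2 without mTEC replicate 1 (12.2%). It was 3 without cTEC replicate 2 (15.3%) or mTEC replicate 3 (18.3%). It was 4 without lung replicate 3 (22%), without any of the colon replicates 1, 2 and 3 (21.9% to 22.4%), and on the authors' estimated counts (22.9%). The filter was applied anew each time. The members tested were thus 11 without cTEC replicate 2, 9 without mTEC replicate 3 and 8 on estimated counts. With the replicate number as a block in cTEC and mTEC, whose same-numbered libraries deviated together, 5 calls were left (23.9% of all genes tested were called), and Defb1 and Defb25 lost theirs (adjusted p = 0.0767 and 0.0533 in edgeR). With the block over all groups 5 were left as well (23.2%), without Defb1 and Defb45 (0.0656 and 0.0697). Defb6 and Defb42 kept their calls in all 24 alternatives run. Against skin, Defb3, Defb19, Defb30, Defb42 and Defb45 were higher in mTEC (34.6% of all genes tested were) and Defb6 and Defb8 were lower (22.4%). Against colon, Defb1, Defb3, Defb6, Defb19, Defb25, Defb30 and Defb42 were higher in mTEC (36.9%) and Defb37 and Defb45 were lower (29.1%). Against lung, Defb3, Defb6, Defb19, Defb25, Defb30, Defb42 and Defb45 were higher in mTEC (34.9%). A test of all groups at once, on 4 degrees of freedom, called all 10, as it did 90.6% of all genes tested.

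The members of surface epithelia come first. Defb1 (ENSMUSG00000044748.8, chr8:21776599-21795185, plus strand) is the counterpart of human DEFB1, the constitutive beta-defensin of kidney and other epithelia. It stood at 45.5, 50.8 and 23.1 CPM in cTEC, 11.9, 10.9 and 12 CPM in mTEC, 7.53, 26.1 and 18.6 CPM in skin, 15.4, 1.5 and 10.7 CPM in lung and 0.0448, 0.0333 and 0 CPM in colon, where it had 2 reads in all. The cTEC libraries lay above the mTEC and lung libraries, skin overlapped both thymic groups, and lung spanned the mTEC level. In the edgeR fit with Benjamini-Hochberg adjustment, Defb1 fell by 1.78 ± 0.60 (SE) on the log2 scale from cTEC to mTEC (adjusted p = 0.0435). That call was lost in 11 of 24 alternatives, among them with the replicate number as a block in cTEC and mTEC (adjusted p = 0.0767 in edgeR) or in all groups (0.0656), without any mTEC replicate, without cTEC replicates 1 or 2, without any colon replicate and without lung replicate 3, with an adjusted p of up to 0.128. Defb1 was higher in cTEC than in lung by 2.11 ± 0.61 (adjusted p = 0.00769 in edgeR). Neighbours in the order of mean levels, cTEC, skin, mTEC and lung, were not separated by the same test, with adjusted p of 0.10, 0.418 and 0.635 in edgeR. Against colon, the ratio of pooled scaled reads was 436 for mTEC (95% interval 120 to 3603, exact binomial, counting error only) and 338 for lung (93.3 to 2796).

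Defb6 (ENSMUSG00000050756.3, chr8:19225478-19228209, plus strand), in the first chromosome 8 cluster, was the member with the highest level in skin. It stood at 57.4, 108 and 66.8 CPM in skin, 18.2, 7.20 and 10.9 CPM in mTEC and 4.76, 2.28 and 1.46 CPM in cTEC, and had no read in colon or lung. The 3 groups with reads did not overlap. Defb6 was higher in mTEC than in cTEC by 2.08 ± 0.47 (SE) on the log2 scale (adjusted p = 0.0103 in edgeR), lower in mTEC than in skin by a log2 difference of -2.67 ± 0.46 (adjusted p = 0.000594) and lower in cTEC than in skin by one of -4.76 ± 0.51 (adjusted p = 2.11e-05). Its 744 reads in mTEC put it at least 305-fold above colon and at least 405-fold above lung, with those groups set at 3 reads. The 6 skin markers summed to 4373 to 6093 CPM in mTEC and 1575 to 3113 CPM in cTEC. Of the 6, 3 were higher in mTEC (15.2% of all genes tested were) and 0 lower (9.45%), with a median log2 difference of 1.17. The part of these markers' cells in the result was not tested. Krt1, a keratin of differentiated epidermis, stood at 11.7 ± 5.93 CPM in mTEC and 4.81 ± 2.98 CPM in cTEC (SD, n = 3), while Krt15 stood at 17.3 ± 1.63 and 17.8 ± 8.73 CPM. Per length, Defb6 stood above Defb1 in mTEC, at 80.6 ± 39.0 against 24.3 ± 2.56 TPM, and in skin, at 361 ± 112 against 26.0 ± 14.4 TPM, and below it in cTEC, at 17.8 ± 11.7 against 79.4 ± 23.8 TPM.

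On the same strand downstream of Defb6 lie Defb46, Defb5 and Defb3. The sequences before the starts of Defb6, Defb3 and Defb5 are shown because reads of these genes of a single cluster fell in different sets of epithelia, Defb6 in skin, mTEC and cTEC, Defb3 mainly in mTEC and cTEC, and Defb5 in mTEC alone. With 14 reads in mTEC, Defb5 was at least 4.36-fold above cTEC, and Defb3 was 5.8-fold above it. The reads of Defb5 are thus too few to tell its set from that of Defb3. Defb46, with 1, 1 and 3 reads in mTEC, 1 in cTEC and none elsewhere, had too few reads to be placed and is not shown. Defb42, from the chromosome 14 cluster, is shown beside them as an mTEC-high gene from elsewhere. Each line gives the 250 bases before the gene's RefSeq start (RefSeq, GRCm38.p6), 5′ to 3′ on the plus strand, at chr8:19225228-19225477, chr8:19293111-19293360, chr8:19247342-19247591 and chr14:63046741-63046990 in the order printed. Capitals mark matches, on either strand, to a short form of the site bound by NF-kB, namely GGG and CC with any 5 bases between them.
Defb6: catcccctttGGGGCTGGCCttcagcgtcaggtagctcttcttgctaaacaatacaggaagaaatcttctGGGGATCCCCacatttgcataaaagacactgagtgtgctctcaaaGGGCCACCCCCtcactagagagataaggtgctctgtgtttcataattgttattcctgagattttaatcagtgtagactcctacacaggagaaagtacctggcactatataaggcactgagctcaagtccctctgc
Defb3: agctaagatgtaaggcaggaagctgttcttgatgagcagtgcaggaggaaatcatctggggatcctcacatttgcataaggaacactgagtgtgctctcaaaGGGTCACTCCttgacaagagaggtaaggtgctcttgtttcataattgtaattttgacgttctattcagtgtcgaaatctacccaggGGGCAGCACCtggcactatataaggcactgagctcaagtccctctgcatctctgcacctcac
Defb5: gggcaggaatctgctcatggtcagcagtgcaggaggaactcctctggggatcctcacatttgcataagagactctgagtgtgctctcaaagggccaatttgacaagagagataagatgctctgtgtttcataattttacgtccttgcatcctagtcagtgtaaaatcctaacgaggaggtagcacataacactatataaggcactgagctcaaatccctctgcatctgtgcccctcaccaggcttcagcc
Defb42: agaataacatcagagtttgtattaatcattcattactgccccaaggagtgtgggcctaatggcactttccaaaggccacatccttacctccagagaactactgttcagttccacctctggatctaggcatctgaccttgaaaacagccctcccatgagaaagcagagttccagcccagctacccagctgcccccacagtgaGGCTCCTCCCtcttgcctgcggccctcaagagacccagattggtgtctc
In a pairwise alignment Defb6 and Defb3 were identical at 81.7% of 235 aligned bases, Defb6 and Defb5 at 80.3% of 223 and Defb3 and Defb5 at 83.9% of 236, and each was identical to Defb42 at 43.4% to 49.4%. Defb6 held 3 such stretches, Defb3 held 2, Defb42 held 1 and Defb5 held 0. A run of 24 bases, cactatataaggcactgagctcaa, which starts 34 bases before the start of Defb6 (chr8:19225444-19225467), was held by 5 windows among 32851 mouse windows of 300 bases, those of Defb3, Defb5, Defb6, Defb7 and Defb8. Of these genes Defb7 had no read in any library.

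The table of promoters matched 29 of the 42 members, with 30 windows of 250 bases before to 50 after the start. Searched on both strands, the short NF-kB form was in 11 of the 30 windows (36.7%) and in 50.8% of all 32851 windows. TATAAA, a short form of the letters of a TATA box, was in 5 (16.7%, against 13.6% of all windows), and TGANTCA, the letters of an AP-1 site, in 2 (6.67%, against 7.81%). No window of a member held matches of more than 1 of these motifs in the forms searched. The run of bases shared by Defb3, Defb5, Defb6, Defb7 and Defb8 holds tatataag, a similar stretch that TATAAA does not match. A window without TATAAA is therefore not shown to lack a TATA box. A match describes the letters only.

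Defb3 (ENSMUSG00000039775.7, chr8:19293360-19295291), which is induced in the airway by bacteria, had 63, 26 and 36 reads in mTEC, 9, 0 and 11 in cTEC, 0, 0 and 5 in skin and none in colon or lung. The mTEC libraries lay above all others, at 1.45 to 3.17 CPM against at most 0.616 CPM. The difference from cTEC, 2.54 ± 1.04 (SE) on the log2 scale, missed the threshold in edgeR (adjusted p = 0.102), while that from skin, 4.04 ± 1.22, passed (adjusted p = 0.0156, and 0.0551 without mTEC replicate 1). Defb3 in mTEC was at least 51.2-fold above colon and at least 68.1-fold above lung.

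Defb4, the counterpart of human DEFB4A and inducible by bacterial products, had 9, 5 and 9 reads in mTEC, 1, 0 and 5 in cTEC and none elsewhere. Defb14, the counterpart of human DEFB103 and a ligand of CCR6, had 9, 4 and 7 reads in mTEC, 2, 4 and 0 in cTEC and 4 in all 9 other libraries together. Neither was tested. By pooled scaled reads, mTEC exceeded cTEC 3.58-fold for Defb4 (95% interval 1.42 to 10.7, counting error only) and 3.11-fold for Defb14 (1.21 to 9.47). Defb8 (ENSMUSG00000031471.3, chr8:19445769-19447606) had 170 reads in skin replicate 2 against 0 and 9 in skin replicates 1 and 3, and 9, 3 and 7 reads in mTEC, 1 in cTEC and 0 in colon and lung. Its edgeR difference between mTEC and skin was -4.04 ± 1.51 (SE) on the log2 scale (adjusted p = 0.0406) and became 0.05 without skin replicate 2 (adjusted p = 0.975). Defb4 and Defb8 share 23 stretches of 50 bases in their transcripts, 5.68% and 9.66% of each, so reads in these stretches could not be placed in either gene. Defb35 had 7 and 11 reads in skin replicates 2 and 3, for which the authors' estimated counts gave 2 in all, and it shares 8.72% of its 50-base stretches with Defb12.

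**Figure D4:**
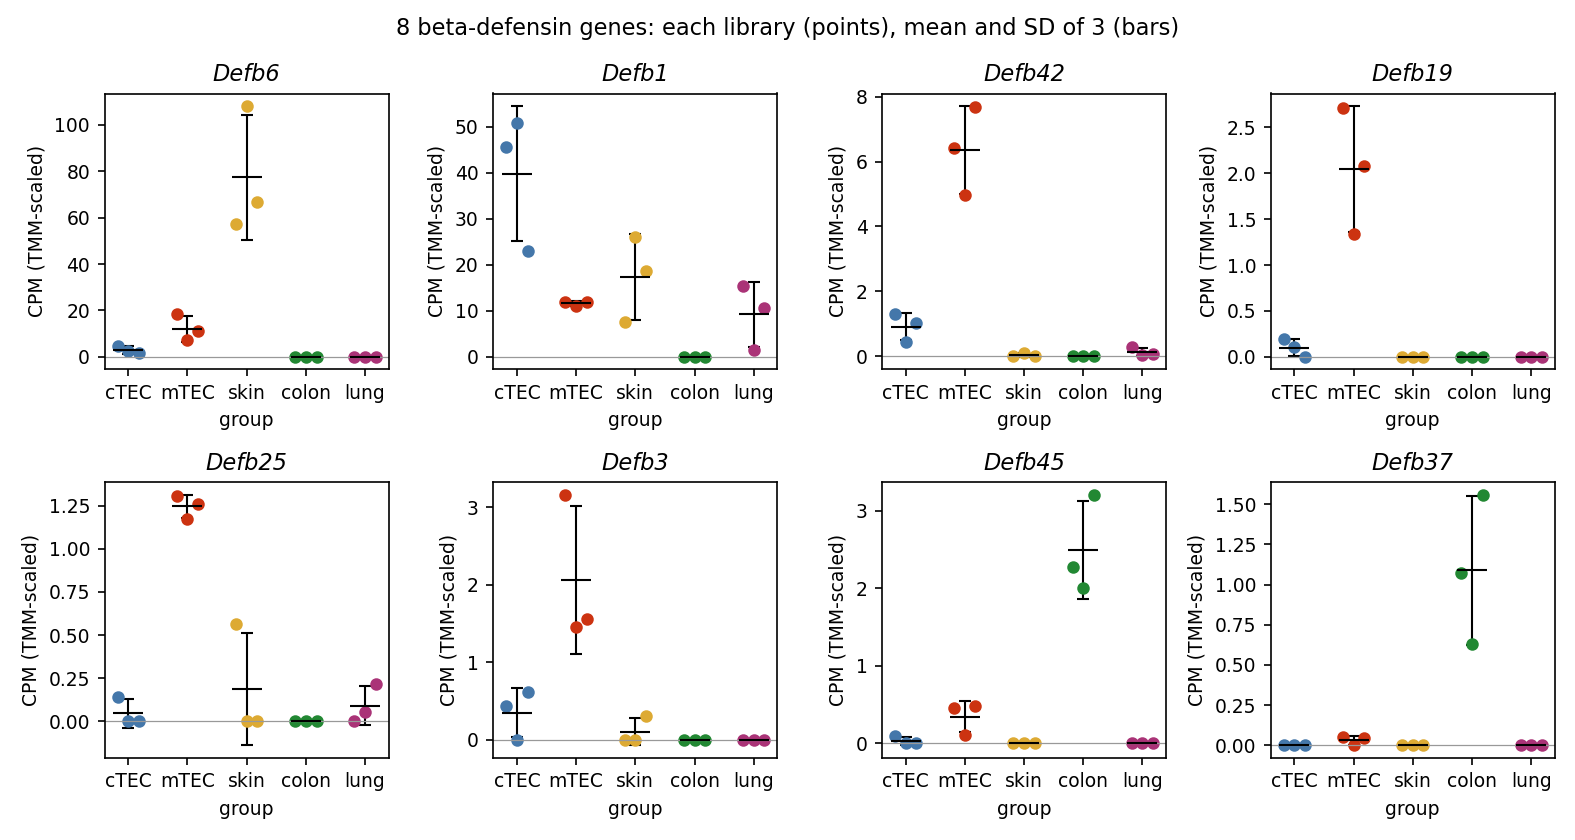
Level of 8 members in TMM-scaled CPM on linear axes, with each library as a point and the mean and SD of the 3 libraries of a group as bars. Defb6 is highest in skin and Defb1 in cTEC, Defb42, Defb19, Defb25 and Defb3 are highest in mTEC, and Defb45 and Defb37 are highest in colon.

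The members known from the male reproductive tract follow. Defb42 (ENSMUSG00000054763.9, chr14:63046991-63058149, plus strand), an epididymal beta-defensin, had 128, 89 and 177 reads in mTEC, 27, 8 and 18 in cTEC, 9, 1 and 2 in lung, 0, 1 and 0 in skin and none in colon. The mTEC libraries, at 6.43, 4.97 and 7.68 CPM, lay above all others, and cTEC, at 0.446 to 1.29 CPM, lay above lung, skin and colon. The log2 difference of mTEC from cTEC was 2.79 ± 0.66 (SE, adjusted p = 0.0100 in edgeR) and that from lung 5.64 ± 0.78 (adjusted p = 4.18e-05). From cTEC to lung the difference was 2.86 ± 0.75 (adjusted p = 0.00538 in edgeR). Defb42 was at least 161-fold higher in mTEC than in colon, and 248.8-fold higher than the single read of skin (95% interval 44.4 to 9850, counting error only). Defb30 (ENSMUSG00000075571.8, chr14:63034087-63049960, minus strand) overlaps it on the opposite strand and had 9, 9 and 11 reads in mTEC, against 1 for cTEC and 1 for lung. The ratio to cTEC was 27.1 (4.49 to 1106, counting error only, adjusted p = 0.0141 in edgeR, and 0.0600 without cTEC replicate 2, 0.0502 without mTEC replicate 1 and 0.148 by DESeq2). Defb30 was tested in only 14 of the 24 alternatives and lost its call in 3 of these 14. The stranded column keeps the reads of these neighbours apart, and the column of the opposite strand held 0 reads of Defb30 in every group.

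On chromosome 2, Defb19 (ENSMUSG00000050645.3, chr2:152576086-152580312, minus strand), known from the Sertoli cells of the testis, had 54, 24 and 48 reads in mTEC, 4, 2 and 0 in cTEC and none in the 9 other libraries. The log2 difference of mTEC from cTEC was 4.23 ± 0.89 (SE, adjusted p = 0.0109 in edgeR, and 0.0539 without mTEC replicate 1). Its level in mTEC was at least 26.5-fold that of skin, 51.6-fold that of colon and 68.6-fold that of lung. Defb25 (ENSMUSG00000074678.1, chr2:152622356-152623053) had 26, 21 and 29 reads in mTEC, 3, 0 and 0 in cTEC, 6, 0 and 0 in skin, 0, 2 and 7 in lung and none in colon. The mTEC libraries lay within 1.17 to 1.31 CPM, above all others. Its ratio to cTEC was 23.7 (95% interval 7.79 to 117, counting error only), with an adjusted p of 0.0329 in edgeR that rose to between 0.0634 and 0.114 by DESeq2 and without any of mTEC replicates 1 to 3 or cTEC replicates 2 and 3, and was 0.0533 with the replicate number as a block in cTEC and mTEC. Against skin, Defb25 missed the threshold (2.83 ± 1.26 on the log2 scale, adjusted p = 0.0723 in edgeR), and passed without skin replicate 1, which held all of its skin reads (adjusted p = 0.00871). Against lung the difference of 3.69 ± 1.21 passed (adjusted p = 0.0172 in edgeR), and not without lung replicate 1 or 2 (0.0645 and 0.0727) or by DESeq2 (0.0619).

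Some members were highest in colon. Defb45 (ENSMUSG00000062124.7, chr2:152593191-152599399), from the same chromosome 2 cluster, had 51, 60 and 72 reads in colon, 9, 2 and 11 in mTEC, 2 in cTEC replicate 1 and none in skin or lung. Its log2 difference between mTEC and colon was -2.81 ± 0.74 (SE, adjusted p = 0.00650 in edgeR). It was 10.3-fold higher in mTEC than in cTEC by pooled reads (95% interval 2.52 to 90.1, counting error only), with an adjusted p of 0.0482 in edgeR that was lost in 14 of 24 alternatives, among them with the replicate block over all groups (0.0697) and without any 1 of cTEC replicates 2 and 3, mTEC replicates 1 and 3, and the colon and lung replicates 1 to 3 (up to 0.140). Defb37 (ENSMUSG00000053695.3, chr8:18986233-18991055), first described in epididymis, had 24, 19 and 35 reads in colon, 1, 0 and 1 in mTEC and none elsewhere, a ratio of 31.7 (8.5 to 267, counting error only, adjusted p = 0.00170 in edgeR). Its neighbour Defb40, also epididymal, had 7, 2 and 1 reads in colon and none elsewhere, at least 2.71-fold above mTEC.

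Of the remaining members with at least 10 reads in a group, Defb23 had 13, 5 and 13 reads in mTEC, 3, 0 and 0 in cTEC and 6, 1 and 0 in lung. Defb22, which coats sperm, had 6, 1 and 7 in mTEC and 1 in cTEC. Defb28 had 6, 0 and 5 in mTEC and 2 in lung, and Defb50 had 6, 0 and 4 in mTEC alone. Defb20 had 3, 1 and 3 reads in mTEC and 2, 8 and 0 in lung, where the ratio of lung to mTEC was 0.875 (95% interval 0.301 to 2.71, counting error only). Defb23 in mTEC was 9.65-fold above cTEC (3.01 to 49.3) and Defb22 was 13.1-fold above it (1.99 to 553). Defb5 in mTEC was at least 4.36-fold above cTEC, 2.95-fold above skin, 5.73-fold above colon and 7.62-fold above lung. The 15 other members with a read had at most 9 reads over all libraries, and each had at most 7 in a group.

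The groups other than mTEC were compared with each other in the same fit. Between cTEC and skin 3 were, Defb42 higher in cTEC (32.5% of all genes tested were) and Defb6 and Defb8 lower (23.9%), with Defb8 again resting on skin replicate 2 (adjusted p = 0.0623 in edgeR without it). Between cTEC and lung, Defb1, Defb3, Defb6, Defb19 and Defb42 were higher in cTEC (30.9%). Between cTEC and colon the same 5 were higher in cTEC (34.6%) and Defb37 and Defb45 lower (30.5%). Defb19, with 6 reads in cTEC and none in lung or colon, lost its call in 9 of 24 alternatives against lung, among them without any lung replicate and without cTEC replicate 1 or 2 (adjusted p up to 0.149 in edgeR). Against colon it lost it in 13 of 24, among them without any colon or mTEC replicate and without cTEC replicate 1 or 2 (up to 0.160). Between skin and lung 2 were, Defb6 and Defb8, both higher in skin (26.7%). Between skin and colon, Defb1, Defb6 and Defb8 were higher in skin (27.4%) and Defb37 and Defb45 lower (30.8%). Between lung and colon, within the same kit, Defb1 and Defb42 were higher in lung (30.4%) and Defb37 and Defb45 lower (28.3%), the call of Defb42 being lost without lung replicate 1 or colon replicate 2 (adjusted p = 0.0770 and 0.0509 in edgeR), with both strands counted (0.0610) and with libraries thinned to equal depth (0.133).

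The 3 mTEC libraries did not hold the family at the same level. Of the 16 members with at least 10 reads over the mTEC libraries, 14 had their lowest CPM in replicate 2 and 10 their highest in replicate 1. No share over all genes is given beside these counts, so they describe the members and do not set them apart from other genes. Replicate 2 was also the mTEC library with the lowest Aire, at 242 against 587 to 613 CPM, and the lowest Fezf2, another regulator of tissue-restricted genes, at 214 against 277 to 313 CPM. The part of these regulators in the members' levels was not tested.

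Other lists of genes give the surroundings, and over all genes tested 15.2% were higher in mTEC than in cTEC and 9.45% lower. Of 12 regulators known in mTEC, all were tested and 6 were higher in mTEC than in cTEC and 1 lower, with a median log2 difference of 0.78 against 0.07 over all genes. Aire, the autoimmune regulator, stood at 481 ± 207 CPM in mTEC and 44.3 ± 20.8 CPM in cTEC (log2 difference 3.44 ± 0.51, adjusted p = 0.000384 in edgeR), and Insm1 at 72.0 ± 20.2 and 12.3 ± 5.92 CPM. Deaf1 was the lower gene, at 21.7 ± 2.22 against 31.3 ± 2.82 CPM. Fezf2 stood at 268 ± 50.2 CPM in mTEC and 51.6 ± 7.97 CPM in cTEC. Of 9 receptors and partners of defensins, 7 were tested and 2 were higher in mTEC, the receptor Ccr6 at 2.23 ± 1.23 against 0.422 ± 0.141 CPM (adjusted p = 0.0324 in edgeR) and its chemokine ligand Ccl20 at 19.1 ± 7.20 against 3.64 ± 0.644 CPM (adjusted p = 0.00364), with a median of 1.12. B cells carry Ccr6, and the summed B cell markers given above were also higher in each mTEC library than in any cTEC library. The part of B cells in the Ccr6 level was not tested. Tlr2 and Tlr4, pattern receptors reported as partners, did not pass (9.08 ± 0.737 and 17.8 ± 5.14 CPM in mTEC against 13.5 ± 4.02 and 12.4 ± 1.47 CPM in cTEC).

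Of 30 other genes known from the epididymis, 25 had a read in mTEC, 19 in cTEC, 19 in lung, 10 in colon and 3 in skin, and 3 had none anywhere. Of the 9 tested, 6 were higher in mTEC than in cTEC (15.2% of all genes tested were) and 2 lower (9.45%), with a median of 3.55. A gene that passes the filter only through mTEC is bound to differ. The counts and medians of these lists thus describe the genes tested and not the whole lists. Lcn10, a lipocalin, stood at 3.24 ± 1.32 CPM in mTEC, had 3 reads in cTEC and none in the other groups, and Cuzd1 stood at 1.74 ± 0.544 against 0.287 ± 0.140 CPM. The lower genes were Adam28, at 39.1 ± 4.09 against 86.2 ± 4.41 CPM, and Teddm2, at 0.963 ± 0.134 against 2.73 ± 1.22 CPM. Of 22 alpha-defensins, which are antimicrobial peptides of Paneth cells, 8 had a read in mTEC, 2 in cTEC, 1 in colon and 0 in skin and lung, and 13 had none anywhere. Defa24, the only one tested, stood at 1.04 ± 0.478 CPM in mTEC and had no read in cTEC. Of 22 other antimicrobial proteins of epithelia, 12 were higher in mTEC than in cTEC and 1 lower, with a median of 2.18. Wfdc18 stood at 472 ± 71.2 against 50.6 ± 14.3 CPM and Ang4 at 14.3 ± 5.24 against 0.554 ± 0.428 CPM, while Rnase4, the lower gene, stood at 52.3 ± 8.95 against 251 ± 49.0 CPM.

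Some members cannot be counted without doubt. Defb41 and Defb36 overlap processed pseudogenes on the same strand, and Defb15 overlaps an antisense gene. The transcripts of Defb2, Defb9, Defb10 and Defb11 share 9.96% to 20.7% of their 50-base stretches with one another, and reads there are lost from counts that keep reads at a single place. Of these genes only Defb2 (2 reads in mTEC) and Defb11 (1 read in lung) had a read.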

How the data were processed

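Messenger RNA of sorted epithelial cells was sequenced in 15 pooled libraries. Per the submitters' processing notes the tools were bcl2fastq 2.20, STAR 2.5.1b and RSEM 1.2.28 on GRCm38, with the release of the annotation not given in the sources. The authors deposited counts per gene in 1 unstranded and 2 stranded columns, with reads outside genes on lines of their own (24.2% to 46.9% of a library), and RSEM tables with expected counts, TPM and gene lengths in bases (another unit). The sense column was used (its gene reads exceeded those on the opposite strand 8.43-fold to 19.3-fold), and the layout of these deposited counts is that of counting which keeps reads at a single place.

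Symbols, biotypes and positions came from GENCODE M21, which holds 50376 of the 50600 identifiers, 45737 in the same version; 224 had no match. Genes were filtered with filterByExpr by group, scaled with TMM factors and tested with edgeR 4.0.16 (R 4.3.3) as described beside the results; the script was tested on simulated data. The common biological coefficient of variation was 28.09%, and replicates differed by a chi-square of 20.48 to 190.9 per degree of freedom, so no library was a copy. Folds against a group without reads set that group at 3 reads and are lower bounds; intervals are exact binomial at 95% and cover counting error only, since PCR reads without molecular identifiers are not independent molecules. Alternatives were DESeq2 1.42.0 (size factors, or its Wald test), other filters, expected counts rounded to whole numbers, the unstranded column, thinned libraries, a replicate block (over all groups, or in cTEC and mTEC) and each library left out. Deviations from the group means of same-numbered cTEC and mTEC libraries correlated at 0.156 to 0.29, and those of differently numbered ones at -0.222 to -0.041, so these numbers were taken to pair the thymic libraries, from the data and not from the labels.

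Members and lists were chosen with earlier results of these data known. Values per library are given for the 20 members with at least 10 reads in a group, and from each list up to 2 genes per direction with the smallest p were named, with Aire and Fezf2; Tlr2, Tlr4, Krt1, Krt15, Cldn4 and the members with fewer reads were named after their values were seen. Promoter sequences came from RefSeq, and protein sequences were not used here.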

Additional observations from a re-analysis of the deposited data

Results flagged for a closer look

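Reads on the strand opposite to a member enter only the alternative on the unstranded column. The most in one library were the 11 of Defb1 in skin replicate 1, beside 80 on its own strand. Where such reads outnumbered the member's own, the cases with the most follow. In lung replicate 1, Defb23 had 9 reads on the opposite strand beside 6 on its own. In skin replicate 1, Defb15 had 7 reads on the opposite strand and 0 on its own; an antisense gene overlaps Defb15 there. Skin replicate 1 was also the library with the lowest ratio of sense to opposite reads, 8.43. The part of that ratio in these reads was not tested.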

How the results depend on the processing

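Between mTEC and cTEC, the 7 calls, where 24.7% of all genes were called, became 4 with RSEM estimated counts (22.9%). They became 2 to 7 when each library was left out in turn (12.2% to 32.6%). The members tested were 8 with estimated counts and 9 to 11 with a library left out. Without a filter on low counts, 35 members were tested in place of 10, and 17 were called between mTEC and colon (9 with it), where 38.3% of all genes were, 15 between mTEC and lung (7), where 38.2% were, and 20 among the 5 groups (10), where 57.7% were. At a minimum of 3 reads the members detected per library were 17 in mTEC, 2.33 in colon and 2.33 in lung; in colon they were 4 at a TPM of at least 0.1 and 3.67 in thinned libraries. Members found in mTEC alone numbered 0 with RSEM estimated counts of at least 1 and 0 at a TPM of at least 0.1, 10 with a read in any mTEC library (chosen after seeing the data), and 2 to 6 when each library was left out. With a read in any mTEC library the share of protein-coding genes was 4.29%. For the other alternatives no such share is given, and leaving a library out loosens the condition for every gene. For named members, 1420 alternatives kept direction and side of the threshold, 77 were weaker, 10 stronger and 2 reversed. The reversed values were 0.054 for Defb8 mTEC with skin without skin replicate 2 (main value -4.04, -4.62 to 0.054 over libraries left out) and -0.18 for Defb1 mTEC with lung without lung replicate 2 (main value 0.34, not called, -0.18 to 0.92 over libraries left out). The cause was not tested. With DESeq2 size factors the median log2 difference over all genes moved from 0.18 to 0.29 between mTEC and colon and from 0.14 to 0.27 between mTEC and lung, and no call of a member changed.

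With the replicate block over all groups the calls were 5 between mTEC and cTEC (23.2% of all genes), 6 between mTEC and skin (55.8%), 10 between mTEC and colon (64.9%), 8 between mTEC and lung (62.5%) and 10 among the 5 groups (89.3%). With the block in cTEC and mTEC alone, chosen after seeing the data, they were 5 (23.9%), 6 (56.2%), 9 (65.4%), 7 (62.7%) and 10 (89.3%). Other than for cTEC with mTEC the libraries share only a number: correlations of same-numbered libraries over the 27 other pairs were -0.0636 to 0.114. Depth limits the members with few reads: the 15 with fewer than 10 reads in every group cannot be ranked between groups.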
